A study of Mus musculus with 4 samples.

Results

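Gonadotropes are the pituitary cells that secrete luteinising hormone and follicle-stimulating hormone, and they were examined here in single-nucleus RNA sequencing of mouse pituitary glands. A nucleus was taken as a gonadotrope when it carried at least 2 UMIs (unique transcript counts) of Gnrhr, the receptor for gonadotropin-releasing hormone (GnRH), or 1 UMI of Gnrhr together with at least 1 UMI of Nr5a1 or Lhb, and no more than 1 UMI in all of Ghrhr, Pappa2 and Pax7, which mark somatotropes and melanotropes. This rule kept 1167 gonadotropes among 35615 nuclei that had at least 500 genes detected and under 5% mitochondrial UMIs. The study holds 4 libraries of wild-type UM-HET3 mice, a genetically mixed stock: 1 library is labelled males of 5 months, 1 females of 5 months, 1 males of 22 months and 1 females of 22 months, and each pools the nuclei of 3 glands. No treatment, transgene or other allele is given in the labels. Sets of 4 values below follow that order of libraries, and levels are in UMIs per 1000000 UMIs (CPM) of the summed nuclei.

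GnRH reaches the pituitary in pulses, and its receptor acts through Gq, phospholipase C, calcium and protein kinase C to release stored hormone and to induce early transcription factors such as Egr1. Both gonadotropins pair the common subunit made from Cga with their own subunit, made from Lhb or Fshb. Transcription of Fshb also responds to activins, which inhibins oppose, and gonadal steroids feed back on the whole axis. Nr5a1 (steroidogenic factor 1), Gata2, Foxl2, Pitx1, Lhx3 and Isl1 are among the transcription factors known to set or keep the identity of these cells.

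Transcripts of the sex chromosomes went against the label of 2 of the 4 libraries in the gonadotropes too. Xist, the RNA of the inactive X chromosome, stood at 0, 0, 3248 and 3145 CPM, and Kdm5d, Ddx3y, Uty and Eif2s3y, which lie on the Y chromosome, summed to 757, 710, 0.298 and 0 CPM. The library labelled 5-month females thus carried Y-linked transcripts and no Xist UMI in its gonadotropes, and the library labelled 22-month males carried Xist. Labelled age and sex chromosomes cannot be told apart in any comparison by labelled age below, and a comparison by labelled sex compares libraries whose sex-chromosome transcripts are alike. The gonadotropes numbered 304, 254, 404 and 205, with a median of 4513.5, 5411, 7188.5 and 8771 UMIs per nucleus and 1521379 to 3356884 UMIs in all per library. Their share of the nuclei was 3.80%, 3.42%, 3.35% and 2.52% (95% Clopper-Pearson intervals 3.39 to 4.24, 3.02 to 3.86, 3.03 to 3.68 and 2.19 to 2.89), and 2.62%, 1.87%, 2.27% and 1.71% when the rule was applied to nuclei thinned to 2000 UMIs. With 1 library per group the shares have no replicate check and were not tested. Libraries shared 14 to 36 barcodes in pairs, 0 of them in gonadotropes.

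The label of gonadotrope held against markers that the rule did not use. Foxp2 was counted in 90.5%, 94.1%, 93.6% and 90.7% of the gonadotropes against 9.42% to 17.7% of other nuclei. Cga, counted in every gonadotrope but also in 95.4% to 98.0% of other nuclei and 90.4% to 98.2% of endothelial and macrophage nuclei, separated the classes by level and not by detection. Hormone transcripts of other pituitary cells were also present, at levels below those of the other nuclei: prolactin (Prl) stood at 7626, 4000, 47303 and 20288 CPM in gonadotropes and at 16385, 9214, 68646 and 40961 CPM elsewhere. Growth hormone (Gh) stood at 41174, 28195, 20175 and 11340 CPM in gonadotropes, and in endothelial and macrophage nuclei, which make neither hormone, at 76539, 53012, 28957 and 17089 CPM. The lactotrope list (Prl, Drd2 and Angpt1, all counted in every library) summed to 4126 to 7723 CPM in the gonadotropes labelled 5-month and 20532 to 47600 CPM in those labelled 22-month, and the part of this difference in the results by labelled age was not tested. The 36 markers of the other classes include Ghrhr, Pappa2 and Pax7, whose low level in gonadotropes was fixed by the rule. Of the 36, 30 (with Ghrhr, Pappa2 and Pax7 among them) stood below the other nuclei in all 4 libraries. In at least 1 library of gonadotropes 11 were at 0 (Avpr1b, Rax, Pdgfra, Sox9, Mrc1 and the rule gene Pax7 among them). The endothelial marker Cdh5 was the exception in every library, at 20.4, 9.98, 17.3 and 13.9 CPM in gonadotropes against 1.40, 3.80, 2.72 and 4.58 CPM in other nuclei. The endothelial list of 4 genes summed to 19.97 to 42.9 CPM in gonadotropes and 19.2 to 48.2 CPM elsewhere. Pcsk2, a prohormone convertase on the melanotrope list, was at 367, 205, 365 and 175 CPM against 249.4, 323, 369 and 378 CPM, and Pecam1, Rgs5, Lcn2 and Dio2 were also above the other nuclei in 1 library each.

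Nuclei near the edge of the rule were graded. Members admitted with 1 Gnrhr UMI and Nr5a1 or Lhb numbered 27, 37, 26 and 10 and carried Foxp2 in 92.6%, 91.9%, 57.7% and 50%. Just outside, nuclei with 1 Gnrhr UMI and neither other gene numbered 75, 58, 206 and 81 and carried Foxp2 in 46.7%, 36.2%, 23.3% and 25.9%. A further 20, 23, 74 and 19 nuclei met the Gnrhr condition and were left out for 2 or more UMIs of Ghrhr, Pappa2 or Pax7. These had medians of 11942.5, 17233, 16988.5 and 26210 UMIs.

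Fshb, the subunit gene of follicle-stimulating hormone (ENSMUSG00000027120, mm10 chromosome 2, 107056140 to 107059656, minus strand), was the subunit gene that passed the test between the libraries labelled 22-month and 5-month. Its level in gonadotropes was 3345, 3503, 389 and 857 CPM, so that both libraries labelled 5-month stood above both labelled 22-month. The log2 fold of labelled 22 over 5 months was -2.46 ± 0.29 (SE; edgeR quasi-likelihood test, adjusted p = 0.00231). In this comparison 5.61% of the 12710 genes tested passed, 3.78% being higher at labelled 22 months and 1.83% lower. The call was lost on leaving out either library labelled 5-month, in fits that also dropped labelled sex as a term.

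The difference in Fshb was one of nuclei with and without the transcript as well as of level. An Fshb UMI was found in 89.1%, 95.7%, 55.2% and 63.9% of gonadotropes, and in 83.0%, 93.2%, 34.0% and 48.5% after thinning every nucleus to 2000 UMIs. In endothelial and macrophage nuclei, which do not make the hormone, the shares were 15.4%, 16.7%, 8.81% and 7.72% (medians of 1861, 2033.5, 2558 and 2739 UMIs per nucleus), and after thinning 19.5%, 16.5%, 4.91% and 4.23%. Median Fshb counts per gonadotrope were 13, 20, 1 and 3 UMIs, with the highest nucleus at 71, 80, 35 and 68 UMIs. Other nuclei carried 82.3, 93.2, 17.3 and 17.9 CPM of Fshb, and the labelled age difference in gonadotropes did not differ detectably from that in other nuclei (log2 difference -0.16 ± 0.35, edgeR adjusted p = 0.910). Among these other nuclei, those with 1 Gnrhr UMI just outside the rule carried Fshb in 48%, 53.4%, 10.7% and 25.9%. Whether other nuclei made the Fshb counted in them was not tested, so the comparison cannot show a fall in other cell types.

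**Figure D1:**
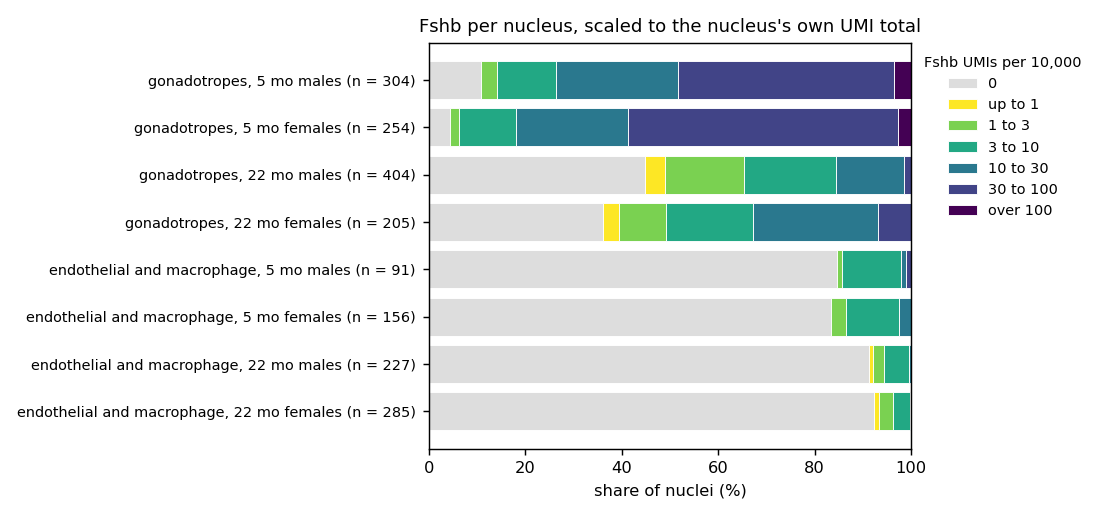
Share of nuclei (%, horizontal axis) by Fshb UMIs per 10000 UMIs of the nucleus, as stacked bars, for the gonadotropes and the endothelial and macrophage nuclei of each library as labelled. The grey part, nuclei without an Fshb UMI, is 44.8% and 36.1% of the gonadotropes labelled 22-month males and females, and 10.9% and 4.33% of those labelled 5-month.

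Cga, the common subunit (ENSMUSG00000028298, chromosome 4, 34893779 to 34907370), stood at 21360, 17357, 8643 and 10793 CPM. Both libraries labelled 22-month were below both labelled 5-month, and the test did not pass (log2 fold -0.88 ± 0.30, edgeR adjusted p = 0.132). Lhb (ENSMUSG00000100916, chromosome 7, 45420820 to 45421897) helped to choose the nuclei and is given without a test: it stood at 73.6, 108, 19.4 and 30.7 CPM and was counted in 30.6%, 48.0%, 14.4% and 24.4% of gonadotropes. Gnrhr, which defines the nuclei (ENSMUSG00000029255, chromosome 5, 86180754 to 86197901), stood at 1023, 761, 1050 and 1139 CPM, with ranges that overlapped between the labelled ages. Fshb and Lhb were found together in 28.3%, 46.9%, 8.66% and 17.6% of gonadotropes, and neither was found in 8.55%, 3.15%, 39.1% and 29.3%. After thinning to 2000 UMIs both were found in 9.86%, 21.1%, 2.75% and 1.96% and neither in 15.0%, 5.98%, 63% and 49.0%. For both genes the thinned values labelled 22-month rest on 11 of 400 and 4 of 204 nuclei, too few to order those libraries. Levels of the subunit genes in thyrotropes, which share Cga, and in endothelial and macrophage nuclei are drawn beside those of gonadotropes.

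**Figure D2:**
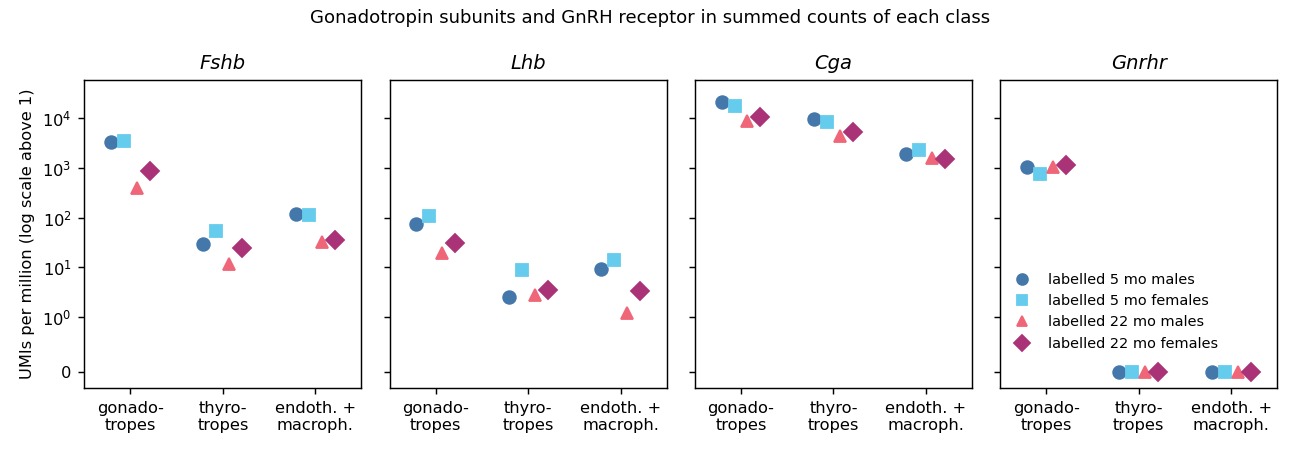
CPM (vertical axis, logarithmic above 1) of Fshb, Lhb, Cga and Gnrhr in summed gonadotropes, thyrotropes, and endothelial and macrophage nuclei, with 1 point per library as labelled. Fshb in gonadotropes lies at 3345 and 3503 CPM in the libraries labelled 5-month and at 389 and 857 CPM in those labelled 22-month, and Gnrhr is 0 in the other classes by the rules that chose them.

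The 3 subunit genes sit on different chromosomes, and short stretches before their RefSeq starts (GRCm38.p6) are shown because they carry letters of factors described below. The 250 bases before each start were searched on both strands for TGACCTT (steroidogenic factor 1), GCGGGGGCG and the degenerate CNCCCNC (Egr1, counted with overlaps), TAATCC (Pitx), TAATTA (Lhx), GTCTAGAC (Smad) and TGANTCA (AP-1). In each stretch capitals mark the 1 motif named for it after the sequences. The match of CNCCCNC in the Cga stretch, on the minus strand 19 to 13 bases before the start, is left in lower case. The starts of Lhb (45420820) and Fshb (107059656) given above are from GENCODE M21 and lie inside the stretches shown. Part of the motif marked in each of these 2 is thus within the gene as GENCODE places it.
Lhb, chr7:45420806-45420835, plus strand: cctggcttcccTGACCTTgtctgtgtctcg
Fshb, chr2:107059652-107059681, minus strand: tataaaagatgaggtgtaactTGACTCAgt
Cga, chr4:34893529-34893778, plus strand: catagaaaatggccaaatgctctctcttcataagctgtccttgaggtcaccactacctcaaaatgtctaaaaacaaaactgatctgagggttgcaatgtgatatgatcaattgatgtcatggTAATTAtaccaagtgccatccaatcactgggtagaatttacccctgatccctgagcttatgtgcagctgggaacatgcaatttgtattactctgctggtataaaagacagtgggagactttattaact
TGACCTT of Lhb starts 129 bases before the RefSeq start, TGACTCA of Fshb 9 bases before it, and TAATTA of Cga 128 bases before it. Among 32851 promoters of the same length, TGACCTT was found in 4.08%, TGANTCA in 6.75%, TAATTA in 4.84%, TAATCC in 6.25%, GCGGGGGCG in 2.57%, GTCTAGAC in 0.167% and CNCCCNC in 60.3%. CNCCCNC was present in the Lhb, Fshb and Cga windows, and the Gnrhr window held none of the 7 motifs.

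Lineage transcription factors set the gonadotropes apart from other nuclei and, for 4 of them, differed by labelled age. Of 16 listed factors, 13 were tested against the other nuclei, of which 7 passed higher and 2 lower (median log2 fold 1.92, against -0.02 over all genes). Because the same counts chose the nuclei, these differences between classes are a description, and no p is given for them. In that comparison 27.2% of 18077 genes passed, 13.4% higher and 13.8% lower.

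Foxp2 reached 943, 984, 1294 and 1217 CPM in gonadotropes and 56.1, 82.1, 109 and 62.7 CPM elsewhere (log2 fold 3.77 ± 0.16). Gata2 stood at 177, 248, 78.0 and 95.6 CPM against 11.3, 15.4, 5.41 and 8.30 CPM (3.74 ± 0.10). Foxl2, a factor for activin-responsive transcription, was at 133, 96.7, 75.7 and 76.3 CPM against 5.989, 5.998, 4.57 and 4.86 CPM (4.02 ± 0.11). Each of these was higher in gonadotropes in all 4 libraries. Lhx4, Nr0b1 (DAX-1, a partner of Nr5a1), Isl1 and Pitx1 were higher with log2 folds of 5.04 ± 0.26, 4.01 ± 0.42, 2.99 ± 0.18 and 1.92 ± 0.21. Six3 and Six6, homeobox factors of the gland, were lower (-1.65 ± 0.19 and -0.81 ± 0.10). Lhx3, Egr1 and Hmgn1 did not pass, and Otx1, at 0 CPM in the gonadotropes of all 4 libraries, was not tested. Nr5a1, used by the rule, stood at 101, 99.2, 90.3 and 113 CPM.

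By labelled age, 4 of the 13 factors tested were lower in the libraries labelled 22-month and 0 were higher (median log2 fold -0.48, against -0.02 over all genes tested). Gata2 fell by 1.17 ± 0.16 on the log2 scale (edgeR adjusted p = 0.00521). Pitx1, at 427, 461, 196 and 213 CPM, fell by 1.01 ± 0.16 (0.0107), and in other nuclei it stood at 71.7, 75.5, 76.5 and 72.3 CPM. The fall of Pitx1 in gonadotropes differed from the change in other nuclei (log2 difference -1.04 ± 0.15, edgeR adjusted p = 0.0476, and 0.2491 or 0.2539 without the library labelled 5-month males or that labelled 5-month females). Lhx3, at 94.7, 78.6, 48.3 and 43.1 CPM, fell by 0.81 ± 0.18 (0.0391). Egr1, at 116, 8.73, 2.38 and 0.991 CPM, fell by 5.11 ± 0.46 (0.000577), with most of its counts in the library labelled 5-month males. Foxp2, Foxl2, Isl1 and Lhx4 did not pass (adjusted p = 0.169, 0.192, 0.0507 and 0.140). Of the 4 factors, 0 passed without the library labelled 5-month males (edgeR adjusted p 0.182 to 0.466), and 1 passed without that labelled 5-month females, 3 without that labelled 22-month males and 2 without that labelled 22-month females.

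**Figure D3:**
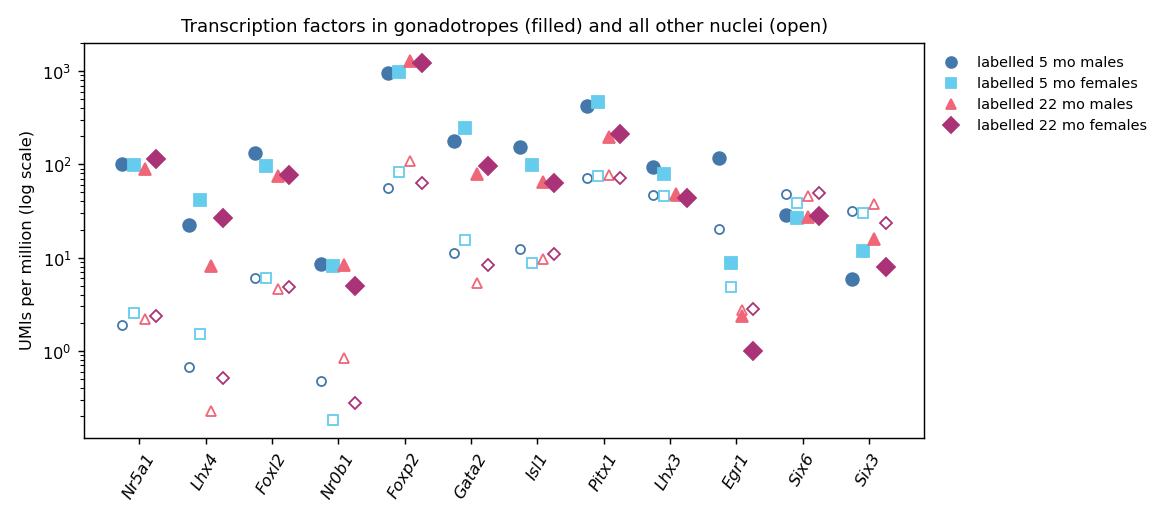
CPM (vertical axis, logarithmic) of transcription factors named in the text in gonadotropes (filled) and all other nuclei (open), with 1 point per library as labelled and none where a level is 0. Foxp2 lies between 943 and 1294 CPM in gonadotropes and at most at 109 CPM elsewhere, and Gata2, Pitx1 and Lhx3 are lower in both gonadotrope sums labelled 22-month.

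Genes beyond the lists separated gonadotropes from other nuclei by larger folds. Of the 12 named by size, Atf7ip2 stood at 32.2, 38.7, 142 and 244 CPM against 0.765, 0.934, 2.69 and 1.26 CPM (log2 fold 6.06 ± 0.40). Bean1 was at 200, 128, 191 and 83.2 CPM against 0.471 to 4.02 CPM. Galnt17, a glycosyltransferase gene, was at 239, 293, 300 and 472 CPM against 7.57 to 9.07 CPM (5.14 ± 0.22). The other 9 were Cfap73, Atp2b3, Fkbp6, Ttc24, Akr1cl, Lypd6b, Aif1l, Lrrc2 and Nr5a1os. The last is an antisense transcript of the rule gene Nr5a1, whose overlapping reads are told apart by strand only. The 6 named as lower (Tmem154, Sox1ot, Actrt3, A1bg, Nipal1 and Lilra6) had 0 UMIs in every library of gonadotropes and at most 2.20 CPM elsewhere, so no fold is given.

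Genes of the GnRH response were among those higher in gonadotropes. Of 28 tested in the GnRH signalling list, 12 passed higher and 5 lower against other nuclei, Plcb4 being among the lower. Over all genes tested against other nuclei 13.4% passed higher and 13.8% lower, the shares to set beside each count of this paragraph. Adcyap1r1, the receptor for the peptide PACAP that acts beside GnRH, stood at 63.1, 104, 21.4 and 42.6 CPM against 1.75 to 3.47 CPM (4.24 ± 0.27). Prkcb, a protein kinase C, was at 1056, 1054, 957 and 1589 CPM against 33.4 to 116 CPM (4.20 ± 0.35), and Rgs4, a regulator of G-protein signalling, had a log2 fold of 3.89 ± 0.13. Of 24 tested in the activin, inhibin and BMP list, 8 were higher and 4 lower, led by Tgfbr3l, a co-receptor for inhibin B, at 456, 414, 252 and 200 CPM against 18.1 to 34.8 CPM (3.40 ± 0.14). Inhbb, which encodes the beta subunit of inhibin B and activin B, had a log2 fold of 2.74 ± 0.38, and the receptor gene Acvr1c was lower (-2.17 ± 0.23). Among steroid receptors, Pgr and Esr1, for progesterone and oestrogen, were higher (1.80 ± 0.16 and 0.87 ± 0.13). Adhesion genes leaned the other way, with 5 of 35 higher and 18 lower (median log2 fold -1.03).

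Thyrotropes, the other class that uses Cga, were chosen by Tshb, Trhr and Dio2 and numbered 680. Against them 19.5% of 11794 genes passed, 10.1% higher and 9.34% lower in gonadotropes. Cga was higher in gonadotropes in all 4 libraries (9829, 8596, 4366 and 5300 CPM in thyrotropes, log2 fold 0.91 ± 0.17). Foxp2, at 16.2 to 54.5 CPM in thyrotropes, differed by 4.69 ± 0.25, and Gata2 and Pitx1 by 1.65 ± 0.14 and 0.99 ± 0.19. Isl1 and Lhx3 did not pass. The 8 named as higher included Cacna1f, a calcium channel gene, at 19.7, 13.7, 26.5 and 149 CPM against 0 to 0.882 CPM, and Glra1, a glycine receptor subunit, at 68.4, 84.2, 42.6 and 69.8 CPM against 0 to 1.27 CPM. The others were Atf7ip2, Aif1l, Fa2h, Atp2b3, Akr1cl and Bean1. The 8 named as lower were Il1rapl1, Vdr (the vitamin D receptor), Mgat4c, Lef1, Pde2a, Irs4, Adgrl3 and Fstl5. Il1rapl1 was at 5.92, 17.5, 23.8 and 22.8 CPM in gonadotropes against 429, 715, 636 and 738 CPM (-5.31 ± 0.23).

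By labelled age, 713 of 12710 genes passed in gonadotropes (5.61%), 481 being higher (3.78%) and 232 lower (1.83%) at labelled 22 months. These shares over all genes are the ones to set beside the count of each gene list below. The fit leaves 1 residual degree of freedom and compares pools of glands and not mice. Each fit by labelled age within gonadotropes with 1 library left out, here and elsewhere, also dropped labelled sex as a term. It left 1 library in a group, so a call lost there cannot be put down to the missing library alone. With all 4 libraries kept, dropping that term gave 223 genes. On leaving out the library labelled 5-month males 13 genes passed, without that labelled 5-month females 66, without that labelled 22-month males 740 and without that labelled 22-month females 453.

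The same 13 genes passed in every one of these fits. Of them 6 lie on the X or Y chromosome (Xist, the overlapping antisense Tsix, and the Y-linked check genes) and 7 on autosomes. Among the 7, Gm1604a and Gm1604b are near-identical copies, so the counts of these 2 are uncertain. 4930544I03Rik and Gm26512 overlap on opposite strands, so their overlapping reads are told apart by strand only. 4930544I03Rik stood at 0.657, 7.49, 626 and 681 CPM in gonadotropes and at most at 70.4 CPM in other nuclei. Gm26512 stood at 10.5, 15.6, 416 and 301 CPM in gonadotropes and at most at 101.7 CPM in other nuclei. The other 3, Ptprt, Trmt9b and Zfp804a, are singled out after their values were seen. Ptprt, a receptor tyrosine phosphatase gene (chromosome 2, 161521990 to 162661147), stood at 4.60, 3.74, 96.8 and 108 CPM in gonadotropes and 5.89, 7.60, 25.1 and 10.7 CPM in other nuclei, a log2 fold of 4.71 ± 0.28 (edgeR adjusted p = 7.545e-05, and at most 0.0492 with any 1 library left out). Trmt9b, a tRNA methyltransferase gene (chromosome 8, 36457548 to 36516570), was at 7.23, 1.87, 69.1 and 59.4 CPM against 3.50, 2.77, 8.07 and 9.35 CPM (3.94 ± 0.37, adjusted p = 0.000666). Zfp804a, a zinc finger gene (chromosome 2, 82053222 to 82259879), was at 1.97, 4.37, 78.9 and 79.2 CPM, and at 3.28, 5.15, 283 and 308 CPM in other nuclei, where both libraries labelled 22-month were also above both labelled 5-month (log2 fold in gonadotropes 4.72 ± 0.32, adjusted p = 0.000119).

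Sgcd, the gene of delta-sarcoglycan (ENSMUSG00000020354, chromosome 11, 46896253 to 47988969), was almost missing from gonadotropes labelled 5-month and common in those labelled 22-month. It stood at 3.29, 11.2, 412 and 202 CPM and was counted in 1.32%, 3.15%, 61.6% and 43.4% of the nuclei. In other nuclei it stood at 10.7, 22.8, 25.8 and 35.1 CPM. Thyrotropes carried 15.0, 19.1, 18.2 and 91.3 CPM, with Sgcd counted in 27.9% of those labelled 22-month females, and endothelial and macrophage nuclei 8.99, 200.2, 82.1 and 54.5 CPM. The log2 fold in gonadotropes was 5.40 ± 0.45 (edgeR adjusted p = 0.000354, 0.0950 without the library labelled 5-month males), and it exceeded that in other nuclei by 4.60 ± 0.61 (0.0395, and 0.186 or 0.234 without either library labelled 5-month).

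Tacr1, the neurokinin 1 receptor for substance P, had 0 UMIs in both libraries labelled 5-month and 22.0 and 33.7 CPM in those labelled 22-month, at least 14.5-fold higher against a floor of 3 counts per library. It was counted in 8.17% and 10.2% of gonadotropes labelled 22-month, and stood at 0 CPM in thyrotropes and at most 0.721 CPM in all other nuclei. Its call was lost without either library labelled 5-month (adjusted p = 0.108 and 0.0572) and by DESeq2 (0.644). Grin2b, a subunit of the NMDA glutamate receptor, had 1 UMI in the libraries labelled 5-month and 410 in those labelled 22-month (38.4 and 139 CPM), a ratio of 238 (95% exact binomial interval 42.5 to 9434, counting error only). Other nuclei held 1.12, 3.68, 11.7 and 10.4 CPM of it.

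The other genes with the largest rises were of 2 kinds. Ppp1r1c, Siglec15 and Iigp1 stood lower in other nuclei labelled 22-month than in the gonadotropes: Ppp1r1c at 50.9 and 77.3 CPM against 2.80 and 12.1, Siglec15 at 10.1 and 24.3 CPM against 0.197 and 0.107, and Iigp1 at 20.9 and 38.6 CPM against 2.62 and 6.40. Adamts19, Crhbp, Reln and Sncaip were as high or higher in other nuclei: Reln, for example, was at 3.29, 4.37, 180 and 671 CPM in gonadotropes and 1.69, 1.90, 369 and 696 CPM elsewhere. Fgf10 was at 0, 0.624, 16.4 and 87.7 CPM against 13.3, 20.9, 24.5 and 19.0 CPM. Without the library labelled 5-month males, 0 of the 10 genes with the largest rises passed (adjusted p 0.0778 to 0.394), and 2 passed without that labelled 5-month females. The 10 with the largest falls were Ier2, Junb, Grem1, Cldn7 (a claudin), Caln1, Chrna1, Prkcq, Dcdc2a, Tmem163 and Chga. Of these, 0 passed without the library labelled 5-month males (edgeR adjusted p 0.0778 to 0.911) and 2 without that labelled 5-month females.

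Of 27 members of the GnRH signalling list tested, 6 were higher and 2 lower at labelled 22 months and 19 did not pass (median log2 fold 0.34). For 0 of the 27 did the labelled age difference pass as different from that in other nuclei. Gnaq, the G protein alpha subunit that the GnRH receptor uses, was at 355, 341, 519 and 857 CPM (1.05 ± 0.22, edgeR adjusted p = 0.0325). Prkce, a protein kinase C, was at 899, 688, 1673 and 1646 CPM (1.19 ± 0.20, 0.0124). Both stood above the level of the libraries labelled 5-month in each library labelled 22-month. Itpr2 (a calcium release channel), Camk2g and Plcb4 had log2 folds of 1.09 ± 0.21, 0.79 ± 0.16 and 0.76 ± 0.16. Nos1, the neuronal nitric oxide synthase, was at 0, 1.87, 7.15 and 84.7 CPM, mostly from the library labelled 22-month females. It had 3 UMIs in the libraries labelled 5-month and 195 in those labelled 22-month, a ratio of 37.8 (95% exact binomial interval 12.7 to 185, counting error only). Adcyap1r1 fell by 1.30 ± 0.20 (0.00742) and Dusp1, a phosphatase of MAP kinases, by 2.64 ± 0.53 (0.0261). Without the library labelled 5-month males 0 of these 8 passed (adjusted p 0.326 to 0.702), and 1 without that labelled 5-month females, 6 without that labelled 22-month males and 2 without that labelled 22-month females.

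Of 20 activin, inhibin and BMP genes tested, 1 was higher and 1 lower (median log2 fold 0.09). Over all genes tested 3.78% were higher and 1.83% lower. Smad3, a transducer of activin signals, was at 107, 88.0, 208 and 343 CPM (1.57 ± 0.25, edgeR adjusted p = 0.00911). Other nuclei held 49.6, 51.4, 49.2 and 61.2 CPM of Smad3, and the difference between the classes passed (1.43 ± 0.21, 0.0476). Tgfbr3l fell by 0.84 ± 0.17 (0.0241). Bmpr1b, a BMP receptor gene, did not pass within gonadotropes, at 5.26, 16.2, 24.7 and 26.2 CPM. It differed from other nuclei in its labelled age difference (2.72 ± 0.31, 0.0280), where its level was 8.06, 18.2, 5.36 and 4.79 CPM. Smad3 and Tgfbr3l had adjusted p of 0.289 and 0.415 without the library labelled 5-month males and neither passed without that labelled 5-month females (0.266 to 0.294), 1 passed without that labelled 22-month females, and without either library labelled 5-month the differences between classes in Smad3 and Bmpr1b had adjusted p of 0.137 to 0.254.

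Of 12 steroid receptors and target genes tested, 3 were higher and 1 lower (median log2 fold 0.45). Pgr, a gene that oestrogen is known to induce, was at 52.6, 59.9, 184 and 465 CPM (2.51 ± 0.28, edgeR adjusted p = 0.00146), and at 16.5, 19.0, 54.8 and 87.4 CPM in other nuclei. Greb1, another oestrogen-induced gene, was at 36.8, 43.7, 191 and 309 CPM (2.72 ± 0.20, 0.000180), close to its 46.7, 85.5, 199 and 308 CPM in other nuclei. Gal, for galanin, was at 1.31, 2.50, 48.6 and 50.02 CPM in gonadotropes and at 3.12, 4.82, 70.8 and 101 CPM elsewhere. Fkbp5, a glucocorticoid-induced gene, fell by 0.72 ± 0.17 (0.0461). Esr1 did not pass (adjusted p = 0.129). Of 10 receptors tested for metabolic and peptide signals, Tacr1 and Igf1r were higher and 0 lower, Igf1r at 225, 240, 498 and 560 CPM (1.29 ± 0.17, 0.00366). None of these 6 genes passed without the library labelled 5-month males (edgeR adjusted p 0.0589 to 0.466), and 1 passed without that labelled 5-month females.

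Several secretory granule genes were lower in the gonadotropes labelled 22-month. Of 26 genes for granule proteins and exocytosis tested, 5 fell and 2 rose (median log2 fold 0.06, against -0.02 over all genes). Chga, chromogranin A, a major granule protein, stood at 2951, 1917, 566 and 276 CPM and fell by 2.48 ± 0.21 (edgeR adjusted p = 0.000411). In other nuclei Chga was at 257, 236, 163 and 105 CPM, and the difference between the classes passed (-1.58 ± 0.23, 0.0476). Scg2, secretogranin II, at 3344, 3178, 954 and 1041 CPM, fell by 1.60 ± 0.21 (0.00356). Rab3b, a GTPase of granule release, Pcsk1n and Scg5, which bind prohormone convertases, fell by 1.06 ± 0.25, fell by 0.99 ± 0.20 and fell by 0.75 ± 0.18 in turn. Rims1 and Syt1, which act in vesicle fusion, rose by 1.13 ± 0.25 and 0.94 ± 0.18. In other nuclei Scg5, Pcsk1n and Rab3b were also lower in both libraries labelled 22-month. On leaving out either library labelled 5-month 0 of the 7 passed (adjusted p 0.264 to 0.619 without males and 0.0965 to 0.768 without females), and 3 passed without that labelled 22-month females. For Chga the difference between the classes was lost too (adjusted p = 0.243 and 0.153).

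Of 27 calcium and potassium channel genes tested, 6 rose, 0 fell and 21 did not pass (median log2 fold 0.52). Kcnq5, an M-type potassium channel, was at 5.92, 4.99, 126 and 84.7 CPM, with at most 6.18 CPM in other nuclei (4.35 ± 0.26, edgeR adjusted p = 7.545e-05). Kcnh7, a channel of the ERG family, was at 15.1, 10.6, 108 and 54.0 CPM (2.73 ± 0.24, 0.000463), and Cacna2d3, an auxiliary subunit of calcium channels, at 77.6, 35.6, 155 and 131 CPM (1.50 ± 0.24, 0.00855). Kcnn2 (a small-conductance channel gated by calcium) and Cacna2d1 rose by 1.26 ± 0.17 and 0.97 ± 0.18. For these 6 the difference from other nuclei did not pass. Of the 6, 0 passed without the library labelled 5-month males (edgeR adjusted p 0.0609 to 0.415) and 1 without that labelled 5-month females.

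**Figure D4:**
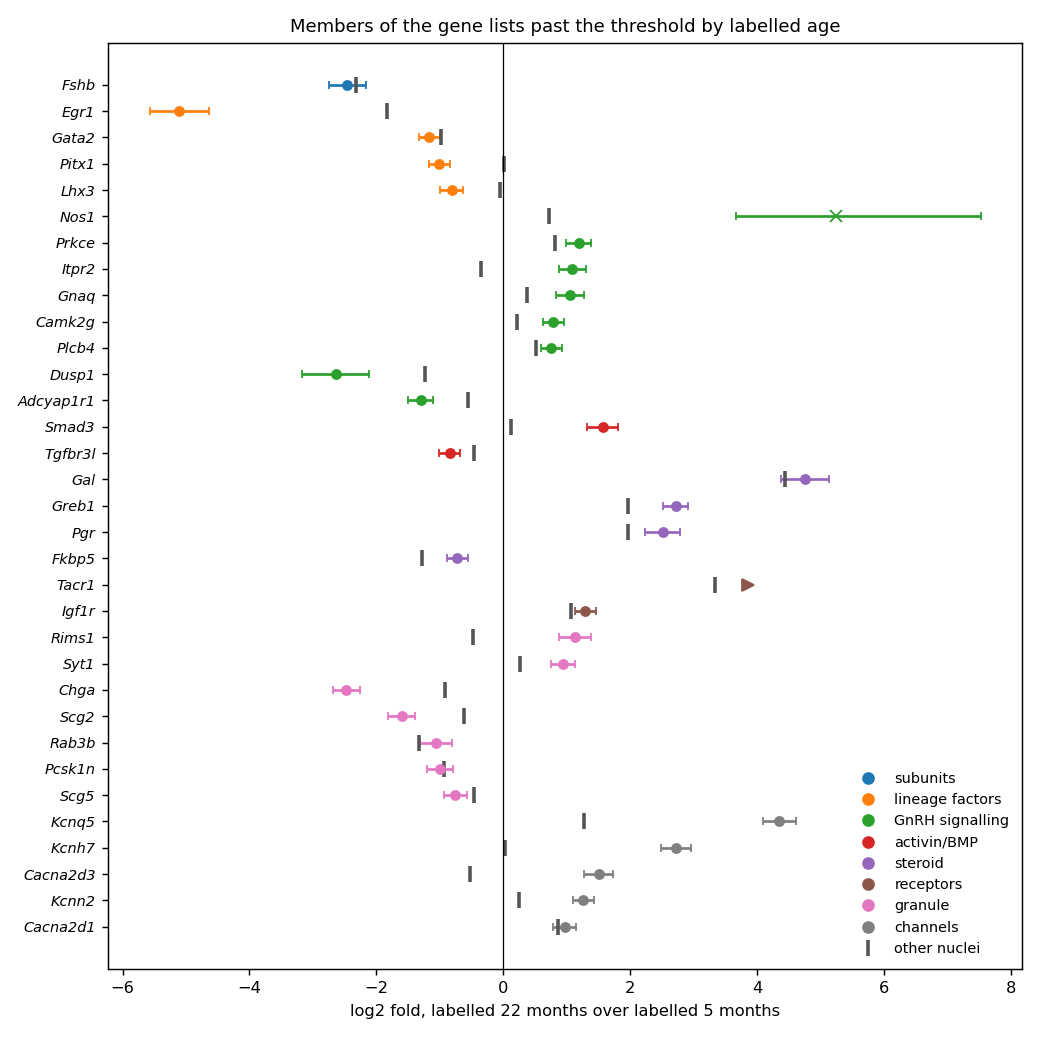
Log2 fold of labelled 22 over 5 months in gonadotropes (horizontal axis, points with SE) for members of 8 gene lists that passed and are reported, coloured by list, with the mean log2 difference of CPM in other nuclei as a bar. The triangle of Tacr1 is a lower bound and the cross of Nos1 a ratio of counts with its 95% interval; Kcnq5 reaches 4.35 in gonadotropes, and Chga falls to -2.48.

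Immediate-early genes, which respond within minutes to stimulation, were high in 1 library. Of 11 tested, 6 fell (Egr1, Ier2, Junb, Dusp1, Btg2 and Jund) and 0 rose (median log2 fold -1.20). Junb stood at 1008, 26.8, 23.2 and 14.4 CPM and Ier2 at 559, 12.5, 18.2 and 7.92 CPM, so that the library labelled 5-month females lay with those labelled 22-month. The library labelled 5-month males was also the highest in other nuclei, with Junb at 163, 24.2, 20.5 and 15.5 CPM. Without that library 0 of the 6 passed (adjusted p 0.466 to 0.911), and 5 passed without that labelled 5-month females, 1 without that labelled 22-month males and 0 without that labelled 22-month females.

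Of the genes of cell adhesion and axon guidance, 13 of 33 tested were higher and 1 lower (median log2 fold 0.94). Sgcd led them. Cntnap2, a neurexin-like adhesion gene, was at 58.5, 102, 498 and 705 CPM (3.04 ± 0.19, edgeR adjusted p = 8.461e-05) and at 60.4, 105, 400 and 740 CPM in other nuclei. Sema3a, a secreted guidance cue, was at 6.57, 6.86, 63.5 and 62.4 CPM against 25.7, 45.0, 146 and 266 CPM elsewhere (3.33 ± 0.27, 0.000326). Nrp2, a semaphorin receptor, fell by 2.15 ± 0.22 (0.00110), at 39.4, 108, 8.04 and 22.8 CPM. Of the 14, 0 passed without the library labelled 5-month males (edgeR adjusted p 0.0609 to 0.469) and 3 passed without that labelled 5-month females.

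Whether the labelled age difference in gonadotropes differed from that in other nuclei was tested directly, and 85 genes passed (0.669%), 64 in the higher (0.504%) and 21 in the lower direction (0.165%). Besides Sgcd, Chga, Pitx1, Smad3 and Bmpr1b, the listed gene Robo1, a guidance receptor, passed at -1.56 ± 0.22 (edgeR adjusted p = 0.0474): it stood at 331, 554, 274 and 314 CPM in gonadotropes and 253, 278, 506 and 643 CPM elsewhere. Among genes named by size in the labelled age comparison, Iigp1 passed in the higher direction, and Grem1 (gremlin 1, a secreted BMP antagonist) and Caln1 in the lower. Grem1 was at 15.8, 53.7, 0.298 and 5.45 CPM in gonadotropes and 0.669, 1.90, 0.213 and 3.85 CPM elsewhere. Caln1 was at 31.6, 48.0, 3.28 and 4.46 CPM against 3.28, 4.10, 2.41 and 3.40 CPM. Each of these lost its call without either library labelled 5-month. The count was 8 without the library labelled 5-month males, 6 without that labelled 5-month females, 400 without that labelled 22-month males and 539 without that labelled 22-month females.

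By labelled sex, 26 genes passed in gonadotropes (0.205% of 12710), 21 higher (0.165%) and 5 lower (0.0393%) in the libraries labelled females. Sytl2, which binds Rab27 on secretory granules, stood at 14.5, 63.6, 2.38 and 44.1 CPM (3.02 ± 0.43, edgeR adjusted p = 0.0469). Prmt8, an arginine methyltransferase gene, was at 6.57, 31.2, 5.36 and 45.6 CPM (2.78 ± 0.34, 0.0381), and Dydc1 at 20.4, 68.6, 7.75 and 39.1 CPM (2.06 ± 0.27, 0.0410). St6galnac5 and Evc2 were the other 2 named as higher. Ptprz1, Vcan (versican, a matrix proteoglycan) and Kcnk2 were lower, Vcan at 59.2, 23.7, 92.0 and 25.8 CPM (-1.57 ± 0.22, 0.0455) and Kcnk2, a background potassium channel, at 179, 83.0, 254 and 88.2 CPM (-1.29 ± 0.18, 0.0446). Of the 10 lists, Nos1 and Kcnh1 were higher and Egr1 lower, and 0 subunit, activin, steroid, receptor, granule or adhesion genes passed. The calls changed with the setting: 0 genes passed with DESeq2's size factors or with at least 2 Gnrhr UMIs per nucleus, while 1078 and 1089 had an unadjusted p under 0.05. With all 4 libraries kept and labelled age dropped as a term, 0 passed and 317 had an unadjusted p under 0.05. Fits with 1 library left out dropped that term too, so their calls cannot show dependence on a single library.

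Within each library, gonadotropes with an Fshb UMI were set beside those without (271 and 33, 243 and 11, 223 and 181, 131 and 74 nuclei). The nuclei were divided by a measured transcript, so the values are a description with no test. Median UMIs were 4651 and 3913, 5496 and 4309, 7597 and 6813, and 8900 and 8126.5. Gata2 was counted in 46.1% and 36.4%, 64.2% and 36.4%, 41.3% and 25.4%, and 56.5% and 13.5% of nuclei with and without Fshb, lower without Fshb in all 4 libraries. Sgcd stood the other way in the libraries labelled 22-month, at 298 with and 578 CPM without Fshb in males and 133 with and 335 CPM without in females. Gnrhr was at 1045 and 1057 CPM in the library labelled 22-month males and at 907 and 1592 CPM in that labelled 22-month females. Prl was higher in nuclei without Fshb in all 4 libraries, at 50507 against 45110 CPM in the library labelled 22-month males and 22488 against 19163 CPM in that labelled 22-month females, and its part in these differences was not tested.

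Beyond these genes, 15 were at least 2-fold higher in nuclei with Fshb in both libraries labelled 22-month, among 4758 genes with at least 50 UMIs in the nuclei with Fshb in both. Among 2684 genes with at least 50 UMIs in the nuclei without Fshb in both, 0 were at least 2-fold lower with Fshb. This list was drawn up after the values were seen. In the libraries labelled 5-month, which did not choose it, 14 of the 15 were also higher with Fshb in both, Kirrel3 being the exception, although only 33 and 11 nuclei there lacked Fshb. The share of all genes higher with Fshb there was not counted, so the 14 are no check of the list. Counts were small: in 5-month females the nuclei without Fshb held 1 UMI of Adcyap1r1 and 3 of Ostf1. Serpine2, a secreted protease inhibitor, stood at 239 with and 117 CPM without Fshb in the library labelled 5-month males, 350 and 133 CPM in 5-month females, 81.3 and 31.5 CPM in 22-month males, and 197 and 32.2 CPM in 22-month females. Adcyap1r1, the PACAP receptor described above, stood at 65.5 and 43.0, 105.9 and 22.2, 31.1 and 7.33, and 61.4 and 5.85 CPM. Ostf1 stood at 202 and 92.2, 209.9 and 66.7, 215 and 78.4, and 480 and 51.2 CPM. The others were Thsd7b, Hecw2, Trim9, Cntn5, Myo3b, Phex, Thsd4, Dock2, Fdxr, Col18a1 and Samd5.

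**Figure D5:**
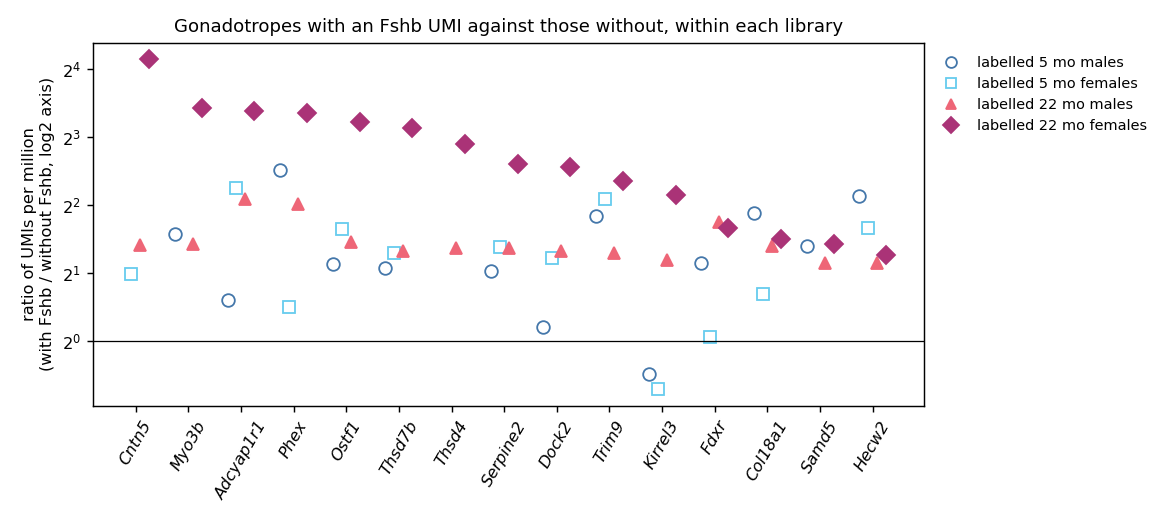
Ratio of CPM in gonadotropes with an Fshb UMI over those without (vertical axis, log2 scaled) for the 15 genes chosen in the libraries labelled 22-month (filled), with the libraries labelled 5-month open; a gene with no UMI in nuclei without Fshb has no point there. In the library labelled 22-month females the ratio is 17.8 for Cntn5, 10.5 for Adcyap1r1 and 9.37 for Ostf1, and Kirrel3 lies below 1 in both libraries labelled 5-month.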

How the data were processed

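Nuclei of snap-frozen glands were prepared and sequenced with 10x Genomics 3' chemistry, per the labels' protocols. The values are counts of UMIs per gene and barcode, deposited by the authors as matrices made with Cell Ranger 7.0.1 per the file headers, and the build is mm10 per the submitters' processing notes. The handling of introns and the aligner's settings are not given in the sources used here. Counts from 3' ends depend on gene structure, so levels were compared between nuclei and not between genes. Barcodes with fewer than 500 genes or at least 5% mitochondrial UMIs were removed. Doublets were kept, and leaving out those scored by Scrublet (scanpy 1.11.5; 14.1%, 18.9%, 26.0% and 20.0% of gonadotropes) was an alternative. The members, gene lists and tests were chosen with earlier results of these data known.

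Counts were summed per library and class, filtered with filterByExpr, scaled by TMM and tested with edgeR 4.0.16 (quasi-likelihood test, Benjamini-Hochberg adjustment over all genes tested, threshold 0.05). Labelled age was fitted with labelled sex as a term and the reverse, and class comparisons with the library as a block, since the classes of a library come from the same glands. With 1 library left out, fits by labelled age or labelled sex held only the label tested, so library and model changed together. The SE is the log2 fold over the square root of F. Nothing ties p-values to separate animals beyond the pools, so they measure no spread between mice. No group has a replicate library, so by labelled age or labelled sex they measure no spread between like libraries either. Those fits left 1 residual degree of freedom, beside a median of 7.355 prior degrees of freedom borrowed across genes. The test of the labelled age difference between classes left 2, beside 4.62. Thyrotropes had at least 2 UMIs of Tshb, at least 1 of Trhr or Dio2, none of Gnrhr and at most 1 of Ghrhr, Pappa2 and Pax7, and endothelial and macrophage nuclei at least 3 UMIs of either fixed marker list and no Gnrhr, Ghrhr, Pappa2 or Pax7. Genes named by size were the 10 largest folds each way by labelled age, 5 by labelled sex, 12 higher and 6 lower against other nuclei and 8 each way against thyrotropes, among genes that passed, kept their direction in each pair of libraries and had at least 20 UMIs in each library in which they were higher; passing with any 1 library left out was dropped as a condition because 3 higher and 0 lower genes met it. Provisional symbols (Gm, Rik, clone names) and sex-linked check genes were left out of that choice, and members of the gene lists were named where they passed. Gene positions are from GENCODE M21 and promoter letters from RefSeq (GRCm38.p6; all 4 genes looked for were found). Intervals and floors cover counting error only. A few members of the gene lists are counted but not reported here by name.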

Additional observations from a re-analysis of the deposited data

Results flagged for a closer look

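In 9 of the genes named in the text the labelled age difference in gonadotropes differed from that in all other nuclei, by a direct test of the difference (edgeR, 2 libraries per labelled age). The log2 difference between the classes was 4.60 for Sgcd (adjusted p = 0.0395), 6.17 for Iigp1 (0.0310), -4.10 for Grem1 (0.0313), -2.91 for Caln1 (0.0374) and -1.58 for Chga (0.0476). It was -1.04 for Pitx1 (0.0476), 2.72 for Bmpr1b (0.0280), 1.43 for Smad3 (0.0476) and -1.56 for Robo1 (0.0474). The fitted value of Iigp1 rests on 1 UMI in the gonadotropes labelled 5-month. That of Grem1 rests in part on a level under the floor of 3 counts (0.894 CPM) in the gonadotropes labelled 22-month males. Each of the 9 genes lost its call when either library labelled 5-month was left out, and Grem1 also without the library labelled 22-month females. Labelled age and sex chromosomes cannot be told apart in any of them.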

How the results depend on the processing

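The counts of genes passing moved when single libraries were left out and with other settings, furthest up with no filter on low counts. Fits by labelled age or labelled sex with 1 library left out also dropped the other label as a term. By labelled age (713 genes) they ran from 13 to 740 with 1 library left out, and were 471 with at least 2 Gnrhr UMIs per nucleus, 408 with DESeq2's size factors, 1646 with no filter on low counts, 314 by DESeq2 and 223 without labelled sex as a term. By labelled sex (26 genes) they ran from 0 to 6 with 1 library left out, and were 0 with at least 2 Gnrhr UMIs, with DESeq2's size factors and without labelled age as a term, 455 with no filter and 135 after thinning to 2000 UMIs. For the difference from other nuclei (85 genes) they ran from 6 to 539 with 1 library left out, and were 143 without Scrublet doublets, 811 with no filter, 236 by DESeq2 and 213 with a class by labelled sex term. Without the library block 3117 genes passed against other nuclei (4922 with it) and 1559 against thyrotropes (2294 with it), where no filter gave 3526. The labelled sex counts at unadjusted p under 0.05 in the settings with 0 were 317 to 1089.

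Thinning to 2000 UMIs gave gonadotrope shares of 2.62%, 1.87%, 2.27% and 1.71%, Fshb shares of 83.0% (labelled 5-month males), 34.0% and 48.5% (labelled 22-month males and females), and Lhb shares of 11.9%, 21.9%, 5.75% and 4.41%. The gonadotrope share was 2.92% with at least 2 Gnrhr UMIs in the library labelled 5-month females, and in that labelled 22-month males 2.92% without Scrublet doublets and 3.96% with no limit on Ghrhr, Pappa2 and Pax7.

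Directions changed in 6 values of 5 results of single genes, and the cause was not tested. The labelled age fold of Ier2 ran from -5.24 to 0.21 with 1 library left out. The difference from other nuclei ran from -0.74 to 0.41 for Fshb, -1.42 to 3.50 for Crhbp (and -2.63 by DESeq2), -2.60 to 0.085 for Ier2 and -2.47 to 0.006 for Junb. Of the other values of single genes, each 1 result in 1 alternative, 740 kept their direction and side of the threshold, 38 passed only in the alternative and 158 only in the main setting. Scrublet's automatic thresholds were not run as planned, since 1 library's marked under 0.5% of nuclei. A setting chosen after the data were seen used the median of the others there. With 1 library per group no share or level has a replicate check.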
